A study of Caenorhabditis elegans with 2 samples.

Results

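The genes described here are 44 Caenorhabditis elegans genes of DNA replication and the cell cycle, listed by name and matched to 44 of the 19973 protein-coding genes on the 6 nuclear chromosomes. They comprise 19 genes of the replication fork, 7 of origin recognition and licensing, 2 of nucleotide supply and 16 kinases, cyclins and regulators of the cell cycle. The names follow function and not a threshold on a peak value, but they were chosen with earlier results of these data known. The data are chromatin immunoprecipitation sequencing (ChIP-seq) of HMG-1.1, a small chromatin protein with high mobility group boxes that bind and bend DNA. Both samples came from strain RW12311, in which CRISPR had inserted the tag TY1::EGFP::3xFLAG at hmg-1.1 itself, so both carried the tagged protein and no untagged animals were analysed here. Whole L4 larvae aged 48 hours, grown from starved L1 larvae obtained by bleaching, were sonicated and precipitated with an antibody against GFP. They formed 1 group of 2 biological replicates.

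The values come from peak lists, which hold no read counts, so the depth of each replicate is unknown and no condition could be compared. Whole animals mix tissues, and peak lists hold no expression values by which a tissue could be checked. A peak at a gene therefore does not say in which cells the protein lay there, nor whether the gene was active. All shares below are descriptions set beside the same share of all protein-coding genes, with no test.

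Replication starts at origins, which the origin recognition complex (ORC) marks and which CDC-6 and CDT-1 license by loading the MCM helicase. At the fork, the GINS proteins activate that helicase, polymerases copy the strands, the PCNA clamp holds them on DNA after the replication factor C (RFC) loader has closed it, and replication protein A (RPA) covers single strands. Cyclin-dependent kinases (CDKs) with their cyclins drive entry into S phase and mitosis, and many of the genes are switched on by E2F and held off by the DREAM complex in cells that do not divide. In L4 larvae, dividing cells are found mainly in the germline and in a few somatic lineages such as the vulva.

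A gene was called marked where a peak summit lay within 1000 bp of its outermost annotated start. The main list was the conservative list called on both replicates together, which held 4277 peaks at a global irreproducible discovery rate (IDR) of at most 0.01, a measure of how well the replicates rank a peak alike. Of the 44 genes, 17 were marked (38.6%), against 2599 of 19973 protein-coding genes (13.0%). In the replicates' own thresholded lists, the marked genes numbered 11 in replicate 1 (25.0%) and 12 in replicate 2 (27.3%). The same rule marked 8.16% of all protein-coding genes in replicate 1 and 9.63% in replicate 2. At 10 of the 44 genes (22.7%), the conservative peak overlapped a peak of each replicate's list by at least 1 bp, against 6.72% of all protein-coding genes. The 17 genes shared 16 peaks, because orc-5 and cyb-1 lie back to back over 1 peak.

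Fork genes had 8 of 19 marked (42.1%), with 5 in replicate 1 and 4 in replicate 2. Origin genes had 3 of 7 (42.9%), with 2 in each replicate. Of the 2 genes of nucleotide supply, 1 was marked in the conservative list and 0 in either replicate. Kinases, cyclins and regulators had 5 of 16 (31.2%), with 4 in replicate 1 and 6 in replicate 2. Each of these shares lay above that of all protein-coding genes in the same list, except for nucleotide supply in the replicates. The groups are small, and the differences between them were not tested.

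**Figure D1:**
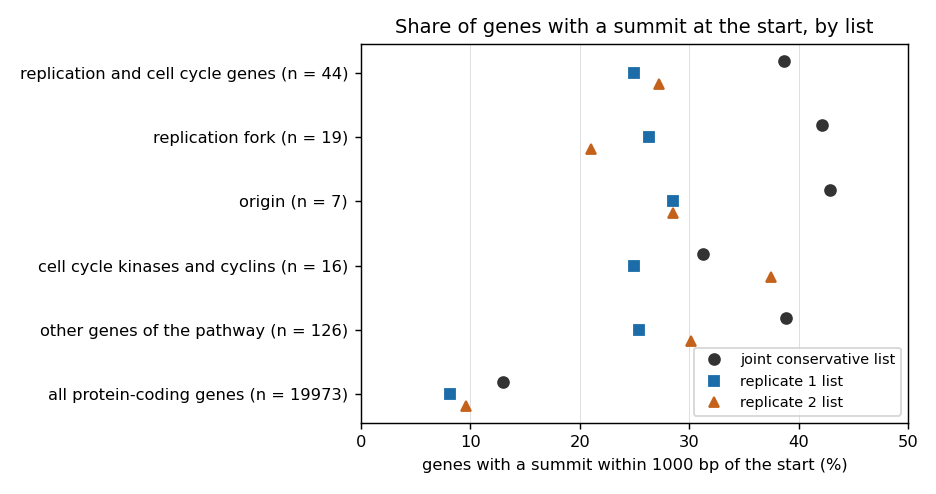
Share of marked genes (%, summit within 1000 bp), on the horizontal axis, for the 44 genes, their roles, the other pathway genes and all protein-coding genes, with 1 symbol for each list. The 44 genes stood at 38.6% in the conservative list, 25.0% in replicate 1 and 27.3% in replicate 2, and all protein-coding genes at 13.0%, 8.16% and 9.63%.

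The sequence under several of the summits is shown first, because motif matches near the summits recur in the results on shared features. Each stretch is a conservative summit with 50 bp to either side, on the strand of the gene, 5′ to 3′, from assembly ce11. The windows are those of mcm-5 (chrIII:4291421-4291521, minus strand), mcm-7 (chrV:4346972-4347072, plus strand), wee-1.3 (chrII:9716770-9716870, minus strand), pcn-1 (chrIV:4049654-4049754, minus strand), rfc-4 (chrIII:6972039-6972139, plus strand), orc-1 (chrIII:10642963-10643063, plus strand) and orc-5 (chrIV:10734655-10734755, minus strand). Capitals mark matches, on either strand, to the E2F-type words TTTCCCGC, TTTGGCGC, TTTCGCGC and TTTGCCGC and to the words TTTGAA and TTCGAA, the type read by LIN-54 of the DREAM complex (the cell cycle homology region, CHR). In mcm-5, mcm-7 and wee-1.3 both kinds lay whole within the window, in pcn-1, rfc-4 and orc-1 the CHR-type word alone, and in orc-5 neither. At orc-1 an E2F-type match starts 44 bp from the summit, runs past the end of the window and is not in capitals. The windows of psf-1, rpa-2, rnr-2, cdc-6 and cdk-1, not shown, held neither kind of word.
mcm-5: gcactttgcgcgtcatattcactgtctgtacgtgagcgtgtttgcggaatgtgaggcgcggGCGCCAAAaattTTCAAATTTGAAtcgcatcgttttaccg
mcm-7: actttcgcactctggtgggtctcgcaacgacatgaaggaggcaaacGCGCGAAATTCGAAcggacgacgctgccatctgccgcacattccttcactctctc
wee-1.3: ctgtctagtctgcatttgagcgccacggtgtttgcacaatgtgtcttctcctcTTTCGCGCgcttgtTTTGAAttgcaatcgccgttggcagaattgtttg
pcn-1: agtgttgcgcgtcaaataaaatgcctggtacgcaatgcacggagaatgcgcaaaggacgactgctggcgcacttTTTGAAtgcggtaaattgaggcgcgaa
rfc-4: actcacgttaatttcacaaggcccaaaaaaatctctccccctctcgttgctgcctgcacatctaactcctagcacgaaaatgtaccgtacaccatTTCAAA
orc-1: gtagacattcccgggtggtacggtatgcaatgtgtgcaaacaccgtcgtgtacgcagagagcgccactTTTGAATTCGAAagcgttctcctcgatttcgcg
orc-5: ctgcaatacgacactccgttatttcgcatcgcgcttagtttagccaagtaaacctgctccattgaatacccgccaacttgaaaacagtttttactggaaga

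Of the marked fork genes, rpa-2 (WBGene00019767, chromosome I, 4770292 to 4771358, plus strand), which encodes a subunit of RPA, had the highest peak signal. The signal is the authors' enrichment value, whose scale is not stated, and it is compared here within a list or by rank. At rpa-2 the peak (4769521 to 4769767) had a signal of 415, rank 125 of 4277, with its summit 651 bp upstream of the start. The overlapping peak reached 226 in replicate 1 and 191 in replicate 2, with summits 648 and 649 bp upstream. The position thus moved by a few base pairs between the lists. A long non-coding RNA gene, M04F3.7, starts 578 bp from this summit.

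The clamp loader gene rfc-4 (WBGene00004340, chromosome III, 6972253 to 6973717, plus strand) had a signal of 313, rank 321, with a summit 164 bp upstream in a peak at 6972001 to 6972177. Replicate 1 gave 141 and replicate 2 gave 171. The start of eef-1A.1, a gene of translation elongation factor 1 alpha on the other strand, lies 377 bp from the summit, and the annotated start of the microRNA gene cel-mir-5549 lies 4 bp from it. The clamp gene pcn-1 (WBGene00003955, chromosome IV, 4047937 to 4049448, minus strand), which encodes PCNA, had a signal of 304, rank 357, with a summit 256 bp upstream in a peak at 4049617 to 4049831. Its signal was 139 in replicate 1 and 171 in replicate 2. At rpa-2, rfc-4 and pcn-1 the peak was in both replicates' lists, and the IDR stood at its floor of 1e-05.

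Among the GINS genes, psf-3 (WBGene00022043, chromosome I, 534455 to 535344, plus strand) had a signal of 247, rank 566, but its summit lay 983 bp downstream of the start, past the end of the gene. The peak spans 535364 to 535555, and the start of icd-2 is nearer, at 353 bp. Both replicates' lists held this peak, with signals of 93.4 and 147 in replicates 1 and 2, but there its summits lay 1007 and 1006 bp from the psf-3 start, just outside the distance used. By contrast psf-1 (WBGene00011275, chromosome II, 9968673 to 9969630, plus strand) had its summit 179 bp upstream, with a signal of 129 and rank 1737. The psf-1 peak (9968306 to 9968681) was in both lists, at 55.1 and 69.5 in replicates 1 and 2. That summit lies in exons of the non-coding RNA genes R53.9 and R53.11, the start of R53.11 being 40 bp away. The GINS gene psf-2 was unmarked.

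Of the MCM helicase genes, 3 of 6 were marked, all with summits upstream and with weaker signals. The gene mcm-4 (WBGene00003156, chromosome I, 2318291 to 2321817, minus strand) had a signal of 100, rank 2444, at 146 bp upstream (peak 2321775 to 2322150). For mcm-7 (WBGene00003159, chromosome V, 4347166 to 4349768, plus strand) the signal was 94.3, rank 2664, at 144 bp upstream (peak 4346834 to 4347209). Its peak was in the list of replicate 1 alone, although the ranked lists, which hold peaks of any quality, gave 52.0 in replicate 1 and 42.9 in replicate 2.

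The lowest of the fork genes was mcm-5 (WBGene00003157, chromosome III, 4288264 to 4291266, minus strand), with a signal of 71.7, rank 3615, at 205 bp upstream (peak 4291283 to 4291658). Its q-value of 0.0545 lay above 0.05. Neither mcm-4 nor mcm-5 was in a replicate's own list, nor in the other thresholded list of both replicates. In the replicates' ranked lists mcm-4 had 34.5 and 60.9, and mcm-5 had 44.6 and 38.3, in replicates 1 and 2. The marked MCM genes thus had lower signals than rpa-2, rfc-4 and pcn-1 and appeared in fewer of the lists. The unmarked mcm-2, mcm-3 and mcm-6 had ranked peaks below the threshold, with signals of 36.0, 33.4 and 50.2.

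**Figure D2:**
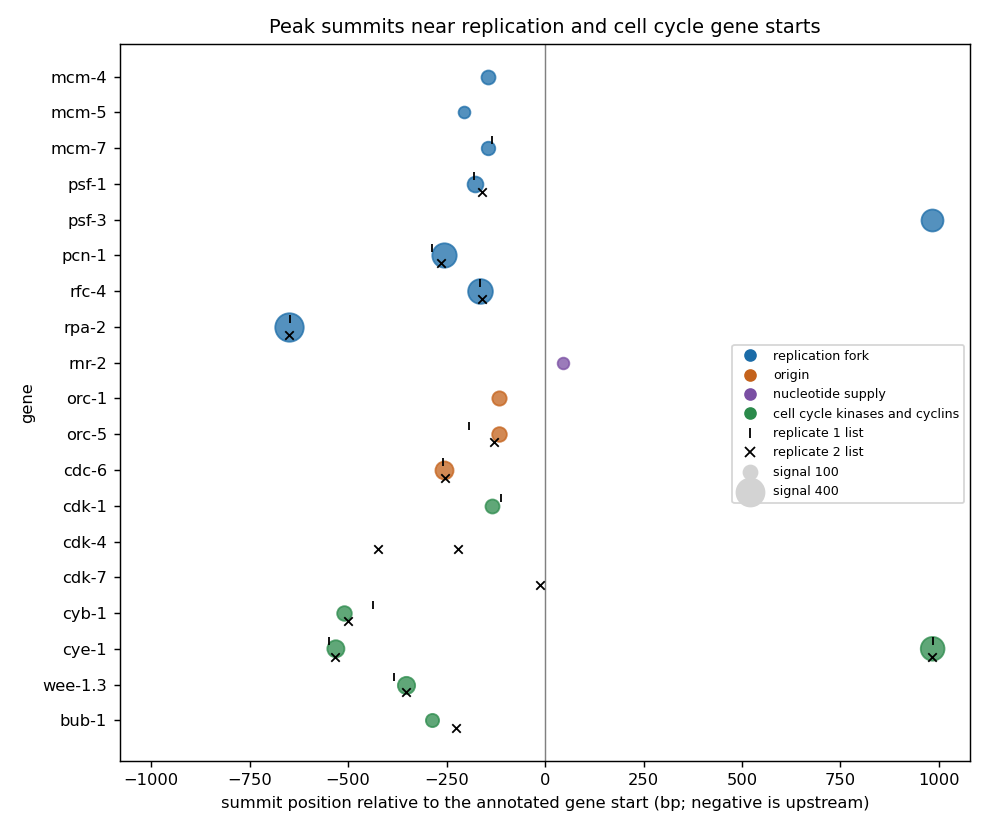
Position of each conservative summit within 1000 bp of the annotated start (horizontal axis, bp, negative upstream) for the 17 marked genes and, as cdk-4 and cdk-7, those marked in a replicate alone, 1 gene a row; circles are coloured by role with area in proportion to the signal, and bars and crosses are summits in the lists of replicates 1 and 2. Most summits lie upstream, with psf-3 at 983 bp, rnr-2 at 46 bp and 1 of the summits of cye-1 at 984 bp downstream.

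Ribonucleotide reductase makes the deoxynucleotides for replication. Its small subunit gene rnr-2 (WBGene00004392, chromosome III, 4093308 to 4094921, minus strand) was the lowest of the 17 marked genes, with a signal of 69.9, rank 3697, and a q-value of 0.0652. The summit lay 46 bp downstream of the start, in a coding exon (peak 4094687 to 4095062). Neither replicate's list held it, and the ranked lists gave 33.3 and 42.5 in replicates 1 and 2. The large subunit gene rnr-1 was unmarked, with a ranked peak of signal 36.6.

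Among the origin genes, cdc-6 (WBGene00000382, chromosome I, 4268070 to 4270287, minus strand), whose product helps to load the helicase, had the highest signal at 168, rank 1180, 256 bp upstream in a peak at 4270355 to 4270730. Both lists held the peak, with 115 in replicate 1 and 54.4 in replicate 2. Its summit lies nearer to the divergent acin-1, whose start is 123 bp away. The complex subunit gene orc-5 (WBGene00013857, chromosome IV, 10732832 to 10734588, minus strand) had a signal of 110, rank 2162, 117 bp upstream in a peak at 10734517 to 10734892. Replicates 1 and 2 gave 50.9 and 62.4, in both lists.

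The remaining marked origin gene was orc-1 (WBGene00012650, chromosome III, 10643129 to 10646058, plus strand), with a signal of 105, rank 2299, 116 bp upstream in a peak at 10642825 to 10643200. Its peak was in neither replicate's own list, with ranked signals of 43.0 and 57.6 in replicates 1 and 2. The divergent dhs-11 starts 148 bp from that summit. The ORC genes orc-2, orc-3 and orc-4 were unmarked, and cdt-1 had no peak of any rank within 1000 bp in the joint list or in either replicate's ranked list. Of the licensing factors CDC-6 and CDT-1, then, 1 gene was marked in both replicates and the other had no peak of any rank within that distance.

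The cyclin E gene cye-1 (WBGene00000871, chromosome I, 6780799 to 6784397, plus strand), whose product starts S phase with CDK-2, had a pair of conservative summits within 1000 bp. The nearer one lay 531 bp upstream with a signal of 150, rank 1392 (peak 6780080 to 6780455), at 60.3 in replicate 1 and 88.4 in replicate 2. The stronger one lay 984 bp downstream in an intron, with a signal of 288, rank 406, at 145 in replicate 1 and 144 in replicate 2. A tRNA gene starts 20 bp from that intronic summit. The upstream summit is nearer to the divergent pqn-21, whose start is 117 bp away.

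With rnr-2, cye-1 was 1 of the 2 genes with a conservative summit inside the gene body. That is 4.55% of the 44 genes, against 5.40% of all protein-coding genes, and both summits also lay within 1000 bp of the start. In the other thresholded list of both replicates, rnr-2 had no summit. There div-1 had a summit in an intron, 2345 bp downstream of its start, with a signal of 77.8. The gene cdk-2, of the partner kinase of cyclin E, was unmarked, with a ranked peak of signal 20.2.

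The cyclin B gene cyb-1 (WBGene00000865, chromosome IV, 10735216 to 10737177, plus strand) shares the orc-5 peak, from which its own start is 511 bp away. The starts of both genes are 628 bp apart. Its kinase partner cdk-1 (WBGene00000405, chromosome III, 9747472 to 9748852, plus strand), which drives mitosis, had a signal of 100.8, rank 2431, 134 bp upstream (peak 9747150 to 9747525). The peak was in the list of replicate 1 alone, where it had 60.3, against 40.0 in the ranked list of replicate 2. The divergent iff-1 starts 145 bp from that summit.

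The inhibitory kinase gene wee-1.3 (WBGene00006940, chromosome II, 9713737 to 9716467, minus strand), whose product holds CDK-1 inactive, had the highest signal of the cell cycle group at its nearest summit, 153, rank 1353. The summit lay 353 bp upstream (peak 9716632 to 9717007), at 94.8 in replicate 1 and 68.0 in replicate 2, in both lists. The opposing phosphatase gene cdc-25.1 and the CDK inhibitor gene cki-1 were unmarked. The spindle checkpoint kinase gene bub-1 (WBGene00000275, chromosome I, 7251941 to 7255223, plus strand) had a signal of 89.7, rank 2815, 287 bp upstream (peak 7251466 to 7251841). Replicate 2 had 55.6 there, and replicate 1 had no overlapping peak of any rank.

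A summit in a single replicate's list was found for 2 further genes. At cdk-7 (WBGene00000408, chromosome I, 2281503 to 2291205, minus strand), the kinase that activates other CDKs and also acts in transcription, replicate 2 had a summit 14 bp upstream with a signal of 155, rank 405 of its 3082 peaks, in a peak at 2291156 to 2291294. The strongest ranked peak within 1000 bp in replicate 1 had a signal of 17.5. The strongest in the joint ranked list, at 57.8, lay 952 bp upstream, a different place. At cdk-4 (WBGene00000406, chromosome X, 13515856 to 13518911, minus strand), the partner of cyclin D, replicate 2 had a summit 221 bp upstream with a signal of 39.5, rank 2765, and another 423 bp upstream with 28.7, rank 2800. Replicate 1 had a ranked peak of 50.05 at 399 bp upstream, below its threshold. The cyclin D gene cyd-1 was unmarked in every thresholded list used.

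**Figure D3:**
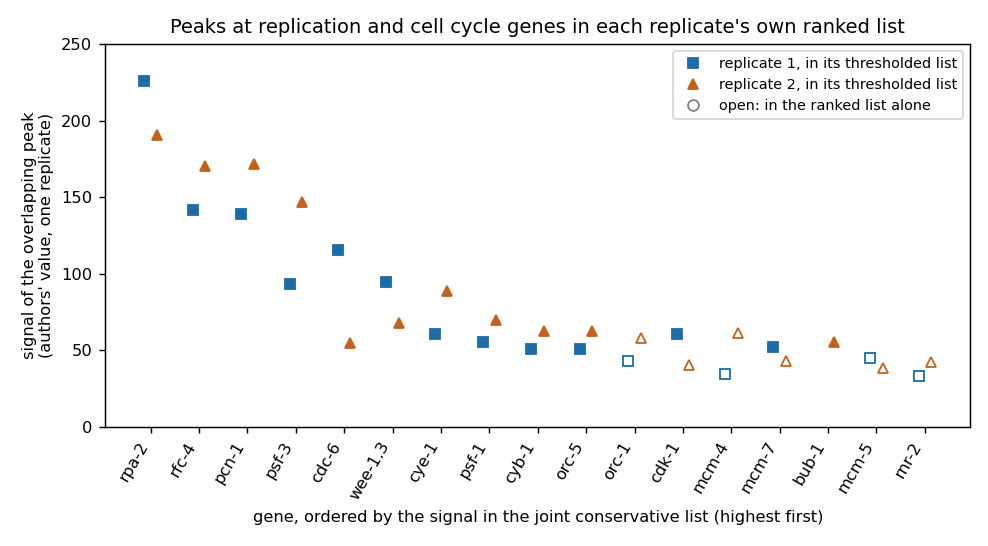
Signal (authors' value, vertical axis) of the replicate peak that overlaps the conservative peak nearest to the start of each marked gene, genes ordered by their conservative signal; squares are replicate 1, triangles replicate 2, filled where the peak passed that replicate's threshold and open where it was in the ranked list alone. By the summit nearest to the start, the genes with the highest conservative signals, rpa-2, rfc-4, pcn-1 and psf-3, are filled in both replicates, and bub-1 has no replicate 1 value.

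Of the 44 genes, 27 were unmarked, and 25 of these had a peak below the threshold within 1000 bp in the joint ranked list. With the marked genes, 42 of 44 (95.5%) had a peak of any rank there, against 64.9% of all protein-coding genes. The strongest such peak of the 25 genes had a median signal of 43.5, ranging between 19.1 and 93.3. Over the 10361 unmarked protein-coding genes with such a peak the median was 32.3. On the scaled IDR score, where 830 is the threshold, the 25 genes had a median of 155 and the 10361 genes a median of 103. The highest of the 25 scores was 699. At a global IDR of at most 0.05 in that list, a setting chosen after seeing the data, 20 of the 44 genes were marked. The same setting marked 16.9% of all protein-coding genes.

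The 3 highest scores below the threshold belonged to cell cycle genes. They were cdk-4, with a score of 699 and a signal of 93.3 at 399 bp upstream, air-1 (the Aurora A kinase of the spindle poles), with 563 and 62.4 at 159 bp upstream, and cyb-3 (a B-type cyclin), with 558 and 43.5 at 57 bp upstream. The lowest signal belonged to rpa-1, the large RPA subunit, with 19.1 and a score of 32, whereas rpa-2 had the highest signal of the marked genes. Besides cdt-1, air-2, the Aurora B kinase of the chromosomal passenger complex, had no peak within 1000 bp in any of the 3 ranked lists used. The other unmarked genes, all but cdk-2 with scores between 62 and 391, were mcm-2, mcm-3, mcm-6 and psf-2 of the helicase, pole-1 and div-1 of the polymerases, rfc-1, rfc-2, rfc-3 and the ligase gene lig-1 at the fork, orc-2, orc-3 and orc-4 at origins, rnr-1, and cya-1 (cyclin A), cyd-1, cdc-25.1, cki-1, the mitotic kinase gene plk-1, cdk-7 and cdk-2, the last with a score of 32.

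**Figure D4:**
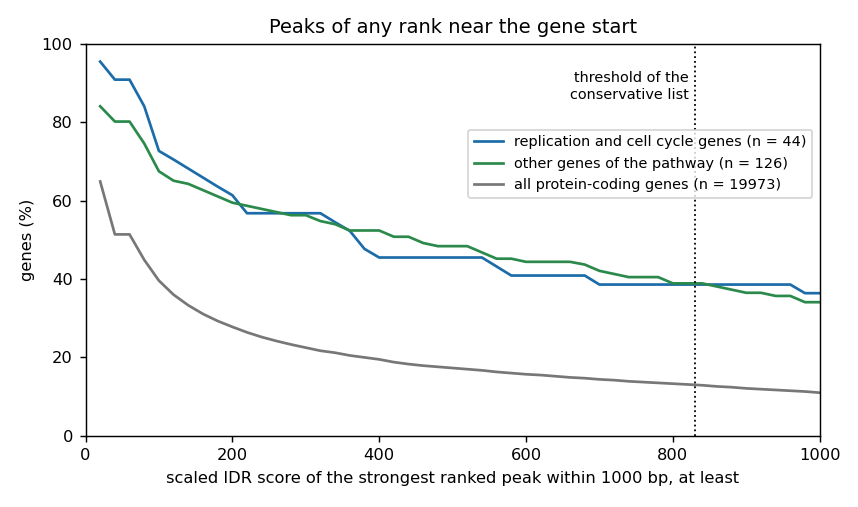
Share of genes (%, vertical axis) whose strongest ranked peak within 1000 bp of the start has at least the scaled IDR score on the horizontal axis, for the 44 genes, 126 other genes of the pathways and all protein-coding genes; the dotted line is the threshold of the conservative list, 830. At any score 95.5% of the 44 genes have a peak, against 64.9% of all protein-coding genes.

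The nearest summits of the marked genes ranged from 651 bp upstream at rpa-2 to 983 bp downstream at psf-3, and both their position and their signal were, at the median, near those of all marked genes. The nearest summit lay upstream of the start at 15 of 17 genes (88.2%), with a median offset of -179 bp, against 84.1% and -208 bp over the 2599 marked protein-coding genes. Their median signal was 110, between 69.9 and 415, against 124 over all marked protein-coding genes. Fork genes had a median of 188, origin genes 110, and kinases, cyclins and regulators 110. The medians of the latter 2 groups are the same peak, counted for orc-5 and for cyb-1, so their equality carries no information. The fork median counts psf-3, whose summit is nearer to the start of icd-2. Without psf-3 the middle fork value would be that of psf-1, 129. Within the fork group, the values divided into high (psf-3, pcn-1, rfc-4 and rpa-2, from 247 upwards) and low (psf-1, mcm-4, mcm-7 and mcm-5, from 129 downwards). Peaks of both replicates overlapped the conservative peak at 10 of the 17 genes (58.8%), against 1343 of 2599 (51.7%).

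Neighbouring starts were common. A divergent protein-coding gene started within 1000 bp at 21 of the 44 genes (47.7%), against 17.7% of all protein-coding genes, and a summit there can count for either gene. With such a neighbour, 10 of 21 genes were marked (47.6%), against 25.9% of all protein-coding genes with one. With no divergent start, 7 of 23 were marked (30.4%), against 10.2% of all protein-coding genes without one. Both shares lay above those of all protein-coding genes, and the part played by divergent neighbours was not tested. The 7 genes include psf-3, whose summit is nearer to icd-2. They also include mcm-4, mcm-5 and rnr-2, whose peaks were in neither replicate's own list. Of the 17 marked genes, 13 (76.5%) had their own start nearest to the summit, the exceptions being psf-3, cdc-6, cyb-1 and cye-1. A gene end on the same strand within 1000 bp upstream, as in an operon or a dense gene cluster, was found at 11 genes, of which 4 were marked (36.4%), against 9.14% of all protein-coding genes so placed.

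The E2F-type words spelled out above occurred in the 500 bp upstream of the start, on either strand, at 20 of the 44 genes (45.5%), against 8.15% of all protein-coding genes. By role, they occurred at 11 of 19 fork genes (57.9%), 2 of 7 origin genes (28.6%), both genes of nucleotide supply and 5 of 16 kinases, cyclins and regulators (31.2%). Marked and unmarked genes hardly differed in this, with 8 of 17 (47.1%) and 12 of 27 (44.4%). Among all marked protein-coding genes the share was 10.4%. The CHR-type words, which are short, occurred at 42 of 44 genes (95.5%) and at 86.4% of all protein-coding genes. A match is a run of letters and does not show that a factor binds there.

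At 4 of the 8 marked genes with an E2F-type match, the match lay within 15 bp of the summit. The distance was 3 bp at wee-1.3, 4 bp at mcm-7, 11 bp at mcm-5 and 15 bp at mcm-4, the first 3 of which are shown in the windows above. It was 44 bp at orc-1, 68 bp at pcn-1, 270 bp at rnr-2 and 420 bp at rpa-2. The unmarked genes with a match included mcm-3, mcm-6, pole-1 of the leading strand polymerase, the clamp loader genes rfc-1 and rfc-2, rpa-1, rnr-1 and cdk-2. Within 50 bp of the summit, A and T made up a median of 51.5% of the bases over the 16 peaks of these genes and also a median of 51.5% over the 2013 peaks at protein-coding starts.

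**Figure D5:**
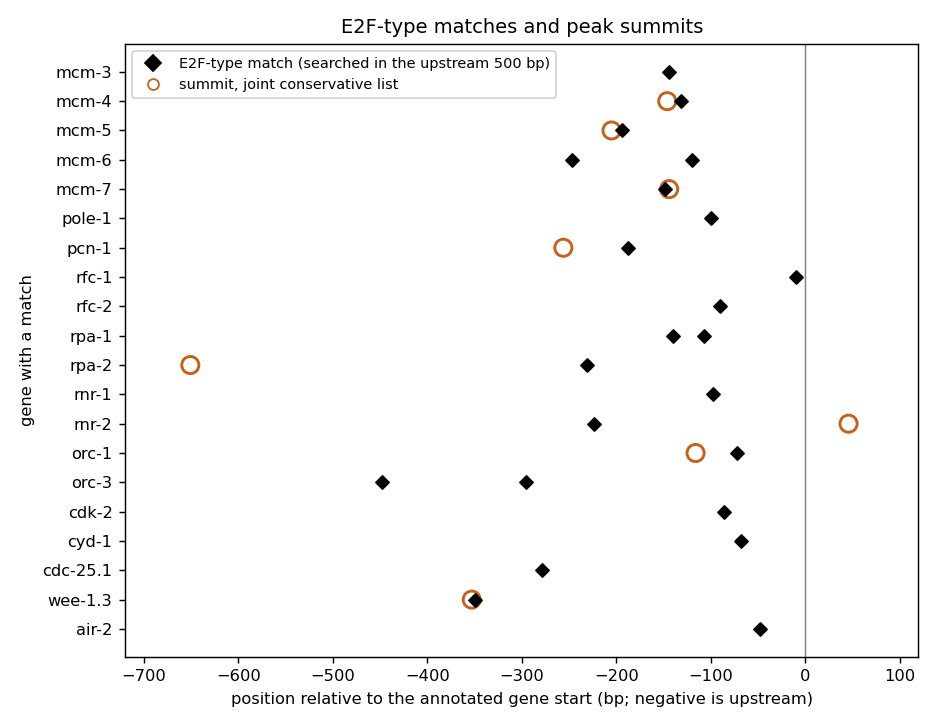
Position of E2F-type matches (diamonds, searched in the 500 bp upstream) and of conservative summits (open circles) relative to the annotated start (horizontal axis, bp, negative upstream), for the 20 genes with a match, 1 gene a row. Summit and match nearly coincide at wee-1.3, mcm-7, mcm-5 and mcm-4 and lie 420 bp apart at rpa-2.

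Other genes of the same pathways, listed by function, gave a similar share. Of 126 such genes, 49 were marked (38.9%), with 32 in replicate 1 and 38 in replicate 2. Replication genes outside the 44 had 14 of 30 marked (46.7%), genes of CDKs, cyclins and their control 11 of 40 (27.5%), and genes of mitosis 24 of 56 (42.9%). The signal reached 339 at ctf-4, which links polymerase to helicase, 335 at top-2, a topoisomerase gene, 295 at tim-1, a gene of fork protection, and 294 at sld-2, a gene of origin firing. In the CDK group it reached 262 at lin-23, which encodes an F-box protein, 229 at lin-35, the worm gene of the retinoblastoma protein, 226 at efl-1, an E2F gene, and 221 at cdk-5. Among genes of mitosis it reached 419 at spd-5, which builds centrosomes, 335 at czw-1, a kinetochore gene, 335 at npp-3, a nuclear pore gene whose peak is also that of top-2, and 318 at cls-2, which encodes a CLASP protein of the spindle. All 12 of these genes had their peak in both replicates' lists. Their summits lay upstream of the start except at spd-5, where it lay 237 bp downstream. Those of cls-2, lin-23 and sld-2 lay near the edge of the distance used, at offsets of -956, -944 and -876 bp. Of the 49 marked genes, 33 (67.3%) had their own start nearest to the summit, against 77.0% of all marked protein-coding genes.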

How the data were processed

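ChIP-seq of tagged HMG-1.1 was analysed from peak lists in 2 replicates of 1 group, on assembly ce11. Per the deposited file listing, each list rests on the alignments of the replicates and of a control; for thresholded lists it names 1 more file without describing it. The sources used here do not give the aligner or the peak caller. The scaled IDR score was deposited by the authors, and the conservative list starts at a score of 830, a global IDR of 0.01. The −log10 of the q-value and the score that is the −log10 of the global IDR were deposited too, and 700 of the 4277 conservative peaks have a q-value above 0.05. The signal in the deposited lists is a value per peak whose scale is not stated. Summit positions, deposited as distances from the peak start, were turned into 1-based coordinates. Depth is unknown, since the files used hold peaks and not reads.

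Summits were assigned to protein-coding genes of Ensembl release 115 within 1000 bp of the outermost start or between start and end, with Python 3.11.15, pandas 2.3.3 and numpy 2.4.6. Sequence came from the NCBI genome of the same build. The joint ranked list used was the one that holds all 4277 conservative peaks. The 44 genes, 132 other pathway genes (126 matched) and the motifs were chosen with earlier results of these data known, so nothing was tested. Every gene with a summit in the conservative list or a replicate's list was named, with the 3 highest scores below the threshold, genes with no peak, and the 4 strongest of each role among the other pathway genes. Alternatives were the other thresholded list, each replicate, 500 and 250 bp, any transcript start, the nearest start alone, peak intervals, stronger peaks, IDR and q-value limits, merged regions, the strongest summit, other overlaps and the MCM genes counted with origins. The assignment was checked on simulated data.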

Additional observations from a re-analysis of the deposited data

How the results depend on the processing

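No paired analysis was possible because the replicates form 1 group. Of the results recomputed under each alternative, 76 stayed within 1.5 times the main count or 1 SD of the replicates, and 42 moved. The 76 include a setting that removed no peak and so could move nothing. The 42 include the median signals in the replicates' lists, which are on scales of their own. With 1 replicate's own list, the marked genes numbered 11 to 12 (17 in the conservative list), fork genes 4 to 5, genes with a body summit 1 in each, and other pathway genes 32 to 38, with a median offset of -260 to -241 bp and a median signal of 60.3 to 68.7 on those lists' own scales. At 250 bp, 9 of the 44 genes were marked, against 6.26% of all protein-coding genes. The 9 included 5 at the fork and 1 of the cell cycle, with 29 other pathway genes, a median offset of -144 bp and a median signal of 100.8. At 500 bp, 13 of the 44 genes were marked, against 9.78% of all protein-coding genes. The 13 included 3 of the cell cycle, and the median offset was -164 bp. Among the peaks at or above the list's median signal, 8 of the 44 genes were marked, against 7.75% of all protein-coding genes. The 8 were 5 at the fork, 1 of the origin and 2 of the cell cycle, while 1 gene had a body summit and 32 other pathway genes were marked, with a median offset of -256 bp and a median signal of 207. A q-value of at most 0.05 left 1 body summit and a median signal of 129. The other thresholded list gave a median offset of -256 bp and a median signal of 119, and the median offset was -155 bp for the nearest start alone and -164 bp for the strongest summit. Counting the MCM genes with origins gave 5 fork and 6 origin genes. A global IDR of at most 0.01 removed no peak. Chosen after seeing the data, a global IDR of at most 0.001 left 10 of the 44 genes, against 8.33% of all protein-coding genes. The 10 included 5 at the fork and 3 of the cell cycle, and the setting left 1 body summit, a median offset of -256 bp and a median signal of 160. The joint ranked list at a global IDR of at most 0.05, also chosen then, gave 20 of the 44 genes, against 16.9% of all protein-coding genes. The 20 included 8 of the cell cycle and had a median signal of 103. The cause of these shifts was not tested beyond the fewer or other peaks that each setting holds. Under each of these settings the share marked among the 44 genes together was above that of all protein-coding genes. This did not hold for every role. At 250 bp, the 1 marked gene of the 16 of the cell cycle was no higher a share than the 6.26% of all protein-coding genes.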

Other observations

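Both motif types stood together at some of the summits, a pattern noticed in the windows and not tested. Words were counted where they lay whole within 50 bp of the summit. The E2F-type match of orc-1, which starts 44 bp away, runs past that window and was not counted. An E2F-type word was present in 5 of the 16 peaks of the replication and cell cycle genes (31.2%), against 79 of the 2013 peaks at protein-coding starts (3.92%). A CHR-type word was present in 10 of the 16 (62.5%), against 383 of the 2013. Both kinds of word were present in 5 of the 16 peaks (31.2%), against 26 of the 2013 (1.29%). Among peaks with an E2F-type word counted in this way, those that also held a CHR-type word were 5 of 5, against 26 of 79. The words were 0 bp apart at mcm-7, 2 bp at mcm-4, 4 bp at mcm-5, 6 bp at wee-1.3 and 11 bp at cye-1. The match at cye-1, upstream of the start by more than the searched 500 bp, is not among the 20 genes with a promoter match. The 2013 peaks include the 16.

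Peak width did not set the genes apart. Peaks of 376 bp, the commonest width in the conservative list (3380 of 4277), were the nearest ones at 13 of the 17 marked genes (76.5%), against 1988 of the 2599 marked protein-coding genes (76.5%). The nearest peaks of psf-3, pcn-1, rfc-4 and rpa-2 were 192, 215, 177 and 247 bp wide.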
